A study of Mus musculus with 6 samples.

Results

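Genes that act on phosphate, pyrophosphate and calcification were followed across RNA-seq libraries of 4T1 cells, a mouse mammary carcinoma line (written 4T1_T in the name of the deposited table), in which asparagine synthetase (Asns) had been targeted by short hairpin RNAs. The 8 genes, of 23481 in the count table, are Phex, Mgp, Spp1, Enpp1, Ank, Alpl, Slc20a1 and Slc20a2. Phex and Mgp were chosen by their measured values, a graded increase over the Asns hairpin libraries, so their levels are given as a description without a test. The other 6 were named for their function, and the question was whether they followed. They and the gene lists below were chosen with earlier results of these data known. Their tests are thus not tests of genes chosen blind to the data.

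The cells, infected with a hairpin in every group, were kept in DMEM with a supplement of non-essential amino acids, a kind of supplement that usually contains asparagine. Hairpin shAsns-2 has libraries A and B, the control hairpin shRenilla, which targets a luciferase absent from mouse cells, has libraries A and B, and hairpin shAsns-1 has library A only, because the column of its library B held 0 reads. No uninfected cells were measured, and nothing in the labels tells if libraries A and B came from different cultures, or if the cells are clones or pools. The p-values therefore measure only the spread between these libraries, which may be technical. For each gene that spread was in part borrowed from all tested genes. In bulk RNA, more cells carrying a transcript and more transcript per cell cannot be told apart.

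The targeted gene went against one label. Levels are given as CPM, a gene's reads per 1000000 gene reads of the library. With shRenilla, Asns stood at 58.7 and 56.9 CPM, with shAsns-2 at 45.7 and 44.2 CPM, and in the library labelled shAsns-1 at 110.4 CPM. It was higher in the library labelled shAsns-1 than in shRenilla (log2 fold change 0.92, SE 0.101, adjusted p = 6.27e-05 by edgeR's quasi-likelihood test), while its difference with shAsns-2 was not called (-0.34, SE 0.0882, adjusted p = 0.216). A direction taken from the library labelled shAsns-1 is thus a direction in that library and not in cells shown to have less Asns RNA. Gene reads ranged from 10244753 to 15955168 over the 5 libraries, and 3 reads correspond to between 0.188 and 0.293 CPM. The library labelled shAsns-1 had reads on 17672 genes and the others on 15052 to 15392. Markers fixed for mammary epithelium summed to 912 CPM in the library labelled shAsns-1 and to between 1093 and 1138 CPM elsewhere. Lower there were Cdh1 (299 CPM against 393 to 432 elsewhere), Krt7, Epcam, Krt14 (2.83 against 11.8 to 13.2) and Krt8 (206 against 213 to 223). Krt18 at 309 CPM lay within the range elsewhere, 288 to 336 CPM, and Krt5 had 2 reads there and 0 elsewhere. Osteoblast markers summed to 8.0 CPM in the library labelled shAsns-1, 5.73 and 5.83 CPM with shAsns-2, and 3.76 and 2.59 CPM with shRenilla, and most of each sum was Dmp1. The other osteoblast markers, Sp7 among them, had at most 7 reads in any library. Fibroblast markers summed to 39.4 CPM in the library labelled shAsns-1 and to between 28.9 and 29.9 CPM elsewhere, of which Pdgfra made up 38.1 CPM and 28.5 to 29.6 CPM. Macrophage markers summed to 12.0 CPM in the library labelled shAsns-1 and to between 11.5 and 14.6 CPM elsewhere. For endothelial and smooth muscle markers the sums were 4.39 CPM there and between 4.27 and 6.78 CPM elsewhere. The part of other cell types in the results was not tested.

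Mineral forms where phosphate and calcium ions exceed what local inhibitors hold in solution. Pyrophosphate is the main small inhibitor: Enpp1 makes it from extracellular ATP, Ank moves it or its precursor ATP out of the cell, and Alpl, the tissue-nonspecific alkaline phosphatase, cleaves it to phosphate. Mgp (matrix Gla protein) and Spp1 (osteopontin) are secreted proteins that bind mineral and restrain its growth, and Mgp needs vitamin K-dependent carboxylation to work. Phex is a membrane endopeptidase known for its loss in X-linked hypophosphataemia and for cleaving mineral-binding peptides, osteopontin among its substrates. Slc20a1 (PiT-1) and Slc20a2 (PiT-2) are sodium-phosphate cotransporters that bring phosphate into cells. In breast tumours, osteopontin is known as a secreted ligand of CD44 and integrins, and small calcifications are a common sign on mammograms.

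Phex lies on chromosome X from 157162075 to 157415312 on the minus strand (GRCm38, GENCODE M21), and its exons cover 6291 bases. Mgp lies on chromosome 6 from 136872435 to 136875823 on the minus strand, with 1187 exon bases. Slc20a1 lies on chromosome 2 from 129198764 to 129211616 on the plus strand, with 5580 exon bases. In the library labelled shAsns-1, Phex had the highest and Slc20a1 the lowest fold change of the 8 genes, and their promoters are shown to set their composition side by side. The sequences are those of RefSeq on GRCm38, 250 bases before to 50 bases after the start, chrX:157415237-157415536 on the minus strand for Phex and chr2:129198523-129198822 on the plus strand for Slc20a1, both 5′ to 3′, with capitals marking matches to the motifs searched.
Phex: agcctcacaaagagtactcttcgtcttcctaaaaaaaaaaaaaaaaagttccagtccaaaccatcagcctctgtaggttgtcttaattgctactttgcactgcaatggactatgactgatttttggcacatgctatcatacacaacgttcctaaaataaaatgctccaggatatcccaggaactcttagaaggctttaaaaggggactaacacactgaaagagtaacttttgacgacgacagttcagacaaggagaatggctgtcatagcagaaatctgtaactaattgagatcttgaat
Slc20a1: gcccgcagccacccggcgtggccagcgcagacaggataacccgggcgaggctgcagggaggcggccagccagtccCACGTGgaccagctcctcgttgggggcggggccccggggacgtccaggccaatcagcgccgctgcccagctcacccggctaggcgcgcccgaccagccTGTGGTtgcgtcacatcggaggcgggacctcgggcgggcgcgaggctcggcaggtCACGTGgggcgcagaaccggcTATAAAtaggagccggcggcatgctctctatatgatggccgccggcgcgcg
The Phex stretch is A and T rich, with 38.7% G or C and 4 CpG dinucleotides, and 31.4% of 32851 mouse promoters in the table have fewer. The Slc20a1 stretch has 73.0% G or C and 36 CpG dinucleotides, and 93.8% of promoters have fewer. All motifs were searched on both strands. The Runx core, spelled TGTGGT, is present in 16.8% of all promoters of this length. The AP-1 motif, spelled TGANTCA, is present in 7.81%, and the composite motif of C/EBP and ATF factors, spelled TGATGNAA, in 3.97%. The E-box of the MYC and USF type, spelled CACGTG, is present in 7.15%, and the box of TATA type, spelled TATAAA, in 13.6%. None of these letters was found in the Phex stretch. The Slc20a1 stretch holds CACGTG with its first base at -175 and again at -22, TGTGGT at -77 and TATAAA at -1, counted from the start. The letters CACGTG read the same on both strands, and no matches overlap. These matches are a description of the letters, with no binding data beside them. Among the other genes, the first listed promoter of Spp1 holds TGTGGT and TATAAA and that of Enpp1 holds TGTGGT. Those of Ank and Alpl hold none of the motifs, and Mgp and Slc20a2 have no promoter listed. Whether motifs or composition go with the fold changes was not tested.

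Per length of exon, the levels of the 8 genes ranged widely in the control. On the RPKM scale (CPM per kilobase of exon, mean of both shRenilla libraries), Spp1 was at 544 and above 99.7% of the tested genes with a length. Ank followed at 144 RPKM, then Slc20a2 at 35.1, Slc20a1 at 31.4, Phex at 14.8 and Mgp at 7.49 RPKM. Alpl at 1.12 and Enpp1 at 0.718 RPKM were low, above 18.6% and 13.7% of tested genes. The control libraries of neighbours in this order did not overlap. Slc20a2 (SD 4.38 RPKM, n = 2) and Slc20a1, though, did not differ beyond the spread of Slc20a2. In the library labelled shAsns-1, Phex was at 38.3 RPKM, above Slc20a2 at 33.7 and Slc20a1 at 19.0 RPKM, whereas in both shAsns-2 libraries Phex, with a mean of 19.7 RPKM, stood below Slc20a1, with a mean of 25.8 RPKM.

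Phex stood highest in the library labelled shAsns-1, next in shAsns-2 and lowest in shRenilla. It was at 241 CPM in the library labelled shAsns-1 (2469 reads), 123 and 126 CPM in shAsns-2 and 88.0 and 97.8 CPM in shRenilla. The 3 groups did not overlap, and the mean was 124 ± 1.96 CPM (SD, n = 2) with shAsns-2 against 92.9 ± 6.97 CPM (SD, n = 2) with shRenilla. The fitted log2 fold change was 1.36 (SE 0.0974) for the library labelled shAsns-1 and 0.45 (SE 0.0837) for shAsns-2, which is 2.57-fold and 1.36-fold. Taken singly, the library labelled shAsns-1 held 2.74 times the Phex CPM of shRenilla A and 2.46 times that of shRenilla B, and the shAsns-2 libraries held 1.26 to 1.43 times. Exact binomial 95% intervals of these ratios, which cover counting error only, ran from 2.31 to 2.93 and from 1.16 to 1.53. The control libraries themselves differed by 1.11 times (interval 1.03 to 1.20).

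Mgp followed the same order at a lower level. It was at 19.8 CPM in the library labelled shAsns-1 (203 reads), 14.0 and 14.4 CPM in shAsns-2 and 9.03 and 8.75 CPM in shRenilla. Again the groups did not overlap, and the libraries within a group lay close together, with means of 14.2 ± 0.257 CPM (SD, n = 2) for shAsns-2 and 8.89 ± 0.195 CPM (SD, n = 2) for shRenilla. The fitted log2 fold change was 1.14 (SE 0.160) for the library labelled shAsns-1 and 0.71 (SE 0.135) for shAsns-2, or 2.21-fold and 1.63-fold. The log2 difference between the hairpins, shAsns-2 minus the library labelled shAsns-1, was -0.44 (SE 0.155) for Mgp and -0.92 (SE 0.0979) for Phex. Both genes were picked for this order, so these SEs do not allow for the picking and no test is drawn from them. With shAsns-2 the fitted increase was larger for Mgp (0.71) than for Phex (0.45), and whether the genes differ was not tested. The order by which both genes were picked, or its mirror image, was met by 13.2% of the 12457 genes tested (762 upward and 883 downward), and 26% of tested genes had every Asns hairpin library above both control libraries or every one below.

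**Figure D1:**
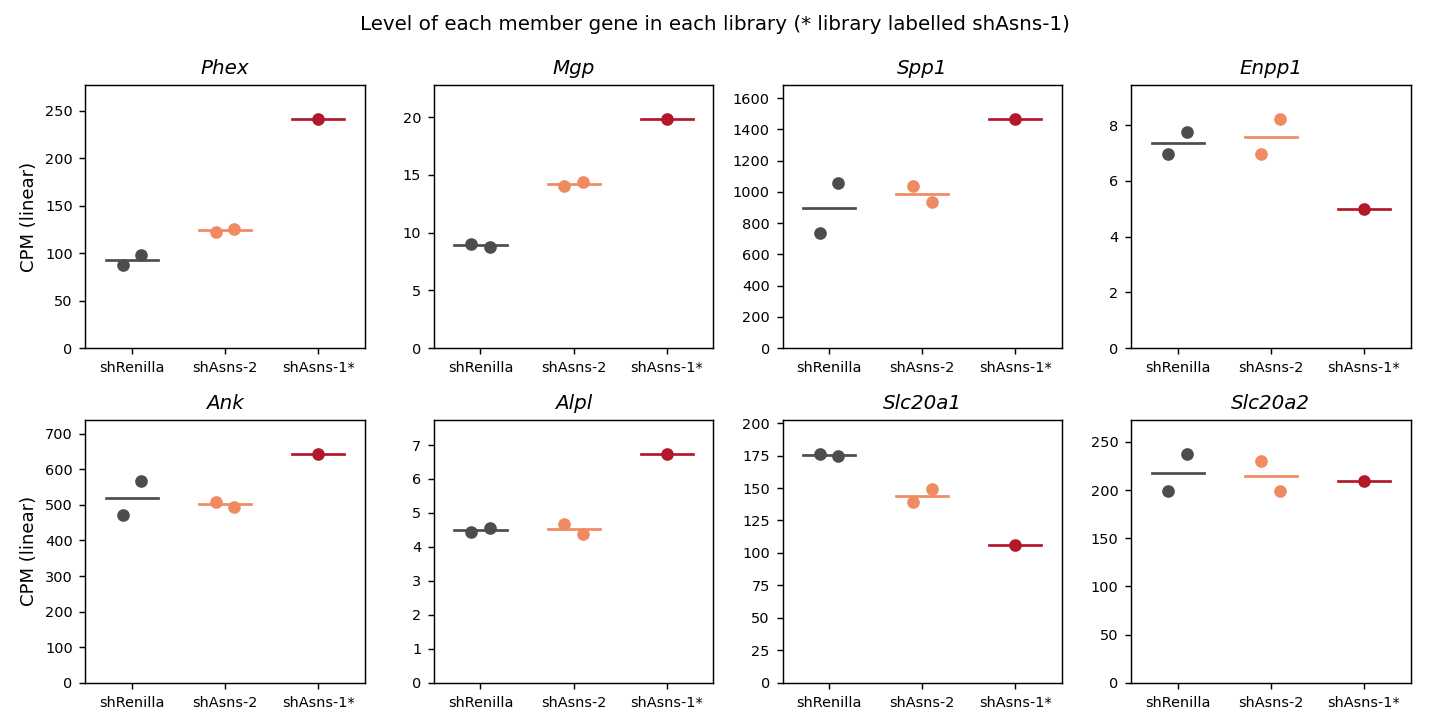
CPM of each of the 8 genes in each library, 1 panel per gene, with points for single libraries and lines for group means, and shRenilla, shAsns-2 and the library labelled shAsns-1 from left to right. Phex steps from 88.0 and 97.8 CPM in shRenilla to 241 CPM in the library labelled shAsns-1, Mgp has the same order, Slc20a1 has the opposite order, and for the other 5 genes the Asns hairpin libraries overlap the control range or straddle it.

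Slc20a1, the phosphate importer PiT-1, went in the opposite direction to Phex and Mgp. It was at 106 CPM in the library labelled shAsns-1 (1084 reads), 139 and 149 CPM in shAsns-2 and 176 and 175 CPM in shRenilla. The groups did not overlap, and Slc20a1 was the only one of the 6 function-named genes in graded order, 1 of 6 against 13.2% of all tested genes. It fell in the library labelled shAsns-1 against shRenilla (log2 fold change -0.74, SE 0.103, adjusted p = 0.000569 by edgeR), to 0.598 of the control level with a 95% interval of 0.514 to 0.696. This call was made under all 10 alternative settings, with values from -0.76 to -0.72. With shAsns-2 the estimate was -0.25 (SE 0.0800, adjusted p = 0.318), a level of 0.838 of control with an interval of 0.746 to 0.943, and it was not called under any of 11 alternatives. Over the mean of both hairpins it was called lower (-0.50, SE 0.0753, adjusted p = 0.00224), a call that was lost without the library labelled shAsns-1 (-0.25, adjusted p = 0.317, range over 11 alternatives 3.54e-07 to 0.317). The hairpins differed from each other for Slc20a1 (0.49, SE 0.103, adjusted p = 0.0193), and that call was lost without shAsns-2 A (0.53) and without shAsns-2 B (0.44), with adjusted p from 0.000964 to 0.206 over 10 alternatives. The annotated genes 9830144P21Rik and Gm4430, on the opposite strand, overlap Slc20a1 exons by 452 and 280 bases. Since the sources do not say whether strand was used in counting, their reads and those of Slc20a1 cannot be told apart.

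Its paralogue Slc20a2 (PiT-2), whose exons overlap those of Smim19 on the opposite strand by 95 bases, did not follow Slc20a1. It was at 209 CPM in the library labelled shAsns-1, 229.7 and 199 CPM in shAsns-2 and 199 and 237 CPM in shRenilla. The groups overlapped, and shRenilla B was 1.19 times shRenilla A. The estimates were -0.07 (SE 0.117, adjusted p = 0.796, 95% interval -0.32 to 0.18) for the library labelled shAsns-1 and 0.0049 (SE 0.0949, adjusted p = 0.989, interval -0.20 to 0.21) for shAsns-2. The Slc20a1 estimates, -0.74 in the library labelled shAsns-1 and -0.25 with shAsns-2, each lie below the Slc20a2 interval of the same contrast. Differences of Slc20a2 that lie within these intervals cannot be told from none.

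Spp1, the most abundant member, whose exons overlap those of Gm42793 on the same strand by 309 bases, rose in the library labelled shAsns-1. Its values were 1465 CPM there (15012 reads), 1038 and 934 CPM in shAsns-2 and 738 and 1055 CPM in shRenilla. The library labelled shAsns-1 was above all others, but both shAsns-2 libraries lay between the controls, which differed by 1.43 times (exact binomial interval 1.39 to 1.46). The increase was called by edgeR (log2 fold change 0.70, SE 0.142, adjusted p = 0.00943), at 1.62-fold with a 95% interval of 1.32 to 2.00. It was called under 9 of 10 alternatives and not by DESeq2 (0.70, adjusted p = 0.293, range over the alternatives 5.13e-11 to 0.293), and its size was 0.47 without shRenilla A and 0.97 without shRenilla B. With shAsns-2 the estimate was 0.17 (SE 0.118, adjusted p = 0.662, interval -0.08 to 0.42). The difference between the hairpins was not called (-0.53, SE 0.142, adjusted p = 0.0614) by edgeR, and it was called under 4 of 10 alternatives (no filter on low counts, the replicate block and without either control library), with adjusted p from 5.47e-06 to 0.552.

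The pyrophosphate enzymes and exporter did not pass the test in any of the 4 contrasts. Ank, which releases pyrophosphate precursor or pyrophosphate, was at 642 CPM in the library labelled shAsns-1, 508 and 494 CPM in shAsns-2 and 469.9 and 567 CPM in shRenilla. Both shAsns-2 values lay between the controls, and the estimate for the library labelled shAsns-1 was 0.30 (SE 0.107, adjusted p = 0.128, 95% interval 0.07 to 0.53). Alpl, which removes pyrophosphate, was at 6.74 CPM in the library labelled shAsns-1 (69 reads), 4.68 and 4.39 CPM in shAsns-2 and 4.45 and 4.55 CPM in shRenilla. Only the library labelled shAsns-1 stood apart, with an estimate of 0.57 (SE 0.241, adjusted p = 0.199, interval 0.06 to 1.08). Enpp1, which makes pyrophosphate, was at 4.98 CPM there (51 reads), 6.97 and 8.21 CPM in shAsns-2 and 6.96 and 7.77 CPM in shRenilla. Its lowest value was that of the library labelled shAsns-1, with an estimate of -0.57 (SE 0.241, adjusted p = 0.195, interval -1.08 to -0.06). In that library the producer thus had a negative and the hydrolase a positive estimate, and neither was called at 49 to 114 reads a library. With shAsns-2 the estimates were -0.02 for Ank (interval -0.21 to 0.17), 0.03 for Alpl (-0.40 to 0.47) and 0.08 for Enpp1 (-0.27 to 0.44).

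**Figure D2:**
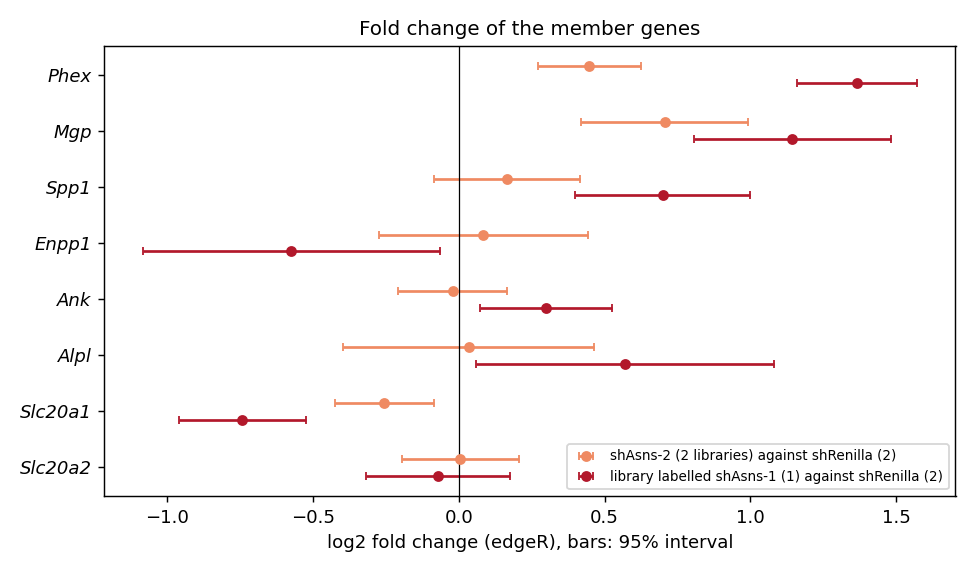
Fitted log2 fold change of each of the 8 genes against shRenilla for shAsns-2 and for the library labelled shAsns-1, with bars for the 95% interval of the fit. The bars of Phex and Mgp do not allow for the picking of these genes on their values. Phex and Mgp lie to the right of 0 in both, Slc20a1 lies to the left, Spp1 reaches 0.70 in the library labelled shAsns-1, and the shAsns-2 values of Spp1, Ank, Alpl, Enpp1 and Slc20a2 have intervals that include 0.

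Calls among the 6 function-named genes were counted beside those among all tested genes. With shAsns-2, edgeR called 0 of the 6, against 0.0642% of tested genes (8 up, 0 down), and DESeq2 and limma-voom called 0 of the 6 as well. At an unadjusted p under 0.05 the count with shAsns-2 was 1, Slc20a1 (adjusted p = 0.318 by edgeR). No share of all tested genes stands beside this count, so it is not read as a result. Intervals in the other contrast, that of the library labelled shAsns-1, are unadjusted too. They have no such share beside them and are not read as a result either. Beside Spp1 and Slc20a1, the intervals of Ank (log2 fold change 0.30), Alpl (0.57) and Enpp1 (-0.57) excluded 0 there. The interval of Slc20a2 (-0.07) included 0. In the library labelled shAsns-1, Spp1 was called up and Slc20a1 down, 2 of the 6, against 4.37% of tested genes (288 up, 256 down). For the mean of both hairpins the count was 1 of the 6 (Slc20a1), against 1.57%, and for the difference between the hairpins it was 1 of the 6 (Slc20a1), against 2.14%. The median log2 fold change of the 6 was 0.02 for shAsns-2 and 0.11 for the library labelled shAsns-1, beside -0.0014 and -0.0090 over all tested genes. The shAsns-2 contrast and that of the library labelled shAsns-1 share their control libraries, so their values are not independent.

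The library labelled shAsns-1 also differed from the controls along base composition, which touches Phex. Over 8899 genes with a mean log2 CPM of at least 3, the log2 fold change had a Spearman correlation with the G and C content of the longest transcript of -0.32 in the library labelled shAsns-1 and 0.07 with shAsns-2. The Phex transcript has 39.6% G or C, and 5.26% of genes have less. The 496 genes within 1 percentage point of Phex had a median log2 fold change of 0.14 in the library labelled shAsns-1, and with the trend removed Phex stood at 1.22 there. Mgp at 49.2% and Slc20a1 at 48.3% lie mid-range, and with the trend removed they stood at 1.17 and -0.72. Spp1 at 43.3% stood at 0.63 and was still called, with adjusted p = 0.0317 by edgeR (range over its 10 alternatives 5.13e-11 to 0.293).

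**Figure D3:**
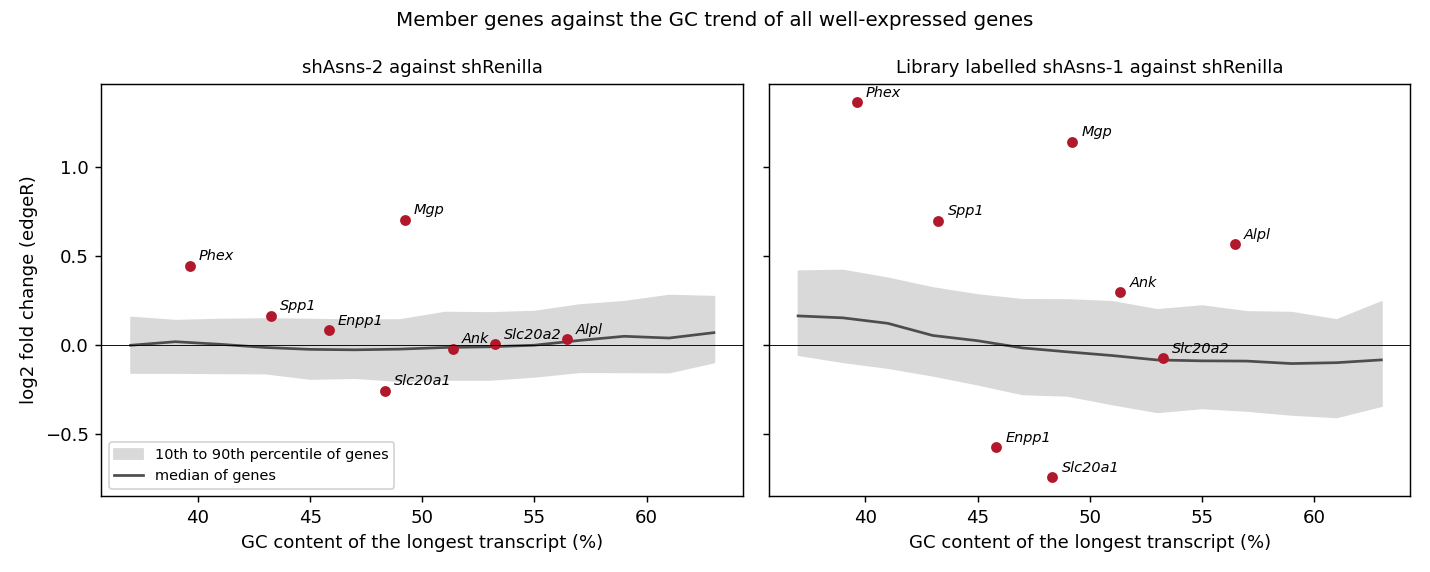
Log2 fold change against shRenilla plotted over the G and C content of the longest transcript in percent, with the median of genes in each bin and the 10th to 90th percentile band, for shAsns-2 and for the library labelled shAsns-1, and the 8 genes marked. Phex sits at 39.6% and far above the band in the library labelled shAsns-1, and the band itself slopes downward with G and C content there.

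A wider list of 104 mineralization genes, none of them among the 8, gave few further calls. Of the 104, 54 passed the filter on low counts. With shAsns-2, edgeR called 0 of the 54 (9 had an unadjusted p under 0.05, of which 5 were higher, and DESeq2 and limma-voom also called 0), and in the library labelled shAsns-1 it called 3 up and 1 down, 7.41% of those tested. Over all tested genes the shares were 0.0642% and 4.37%. The median log2 fold change was 0.03 and -0.02 for these contrasts. Counts at an unadjusted p under 0.05, here and in the groups below, have no share of all tested genes beside them. They are thus not read as a result about the list. For the mean of both hairpins 2 were called, both up, 3.70% of those tested against 1.57% of all tested genes. For the difference between the hairpins 1 was called, Stc1, 1.85% of those tested against 2.14% of all. Since a gene that is high in one group can pass the filter through that group, these counts describe the 54 and not the list.

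The calls by group that follow are for the library labelled shAsns-1, where 4.37% of all tested genes were called, so 1 call in a small group describes that gene and not the group. Among vitamin K and mineral-binding proteins, 1 of 6 tested was called. Dmp1, a bone matrix phosphoprotein of the same family as osteopontin, was at 6.93 CPM in the library labelled shAsns-1, 4.49 and 5.26 CPM in shAsns-2 and 2.76 and 2.17 CPM in shRenilla. Its groups did not overlap, and it rose in the library labelled shAsns-1 (log2 fold change 1.47, SE 0.277, adjusted p = 0.00604 by edgeR), while with shAsns-2 the estimate was 1.01 (adjusted p = 0.159). For the library labelled shAsns-1, DESeq2 gave no adjusted p for Dmp1, and it did not call Dmp1 with shAsns-2. The order of the Dmp1 groups, or its mirror image, was met by 13.2% of all tested genes. Tnfrsf11b (osteoprotegerin), named after its values were seen, had 15 and 9 reads in shRenilla, 5 and 7 in shAsns-2 and 1 in the library labelled shAsns-1, and was not called (-2.91, SE 1.1, adjusted p = 0.148 by edgeR). The 3 genes of this group with the highest mean CPM over the 5 libraries were not called: the matrix protein Sparc (0.11 in the library labelled shAsns-1 and 0.15 with shAsns-2) and the vitamin K epoxide reductases Vkorc1 (0.15 and 0.21) and Vkorc1l1 (0.23 and 0.09), which recycle the cofactor that Mgp carboxylation needs.

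Among pyrophosphate enzymes and ectonucleotidases, 1 of 9 tested was called. Enpp4, a relative of Enpp1 that splits dinucleotides, was at 91.4 CPM in the library labelled shAsns-1, 69.5 and 73.6 CPM in shAsns-2 and 67.6 and 66.4 CPM in shRenilla. It rose in the library labelled shAsns-1 (0.43, SE 0.102, adjusted p = 0.0239 by edgeR), and the call was lost with DESeq2, with the G and C trend removed and without either shAsns-2 library. Not called were Nt5e, which turns AMP into adenosine (0.13 in the library labelled shAsns-1 and -0.03 with shAsns-2), and the inorganic pyrophosphatase Ppa1 (-0.37, adjusted p = 0.0673 by edgeR, and -0.28). Of the phosphate and calcium transport genes 0 of 7 tested were called, and at an unadjusted p under 0.05 the edgeR count was 0 in the library labelled shAsns-1 and 1 with shAsns-2. They include Xpr1, the phosphate exporter (0.16 in both contrasts), the mitochondrial phosphate carrier Slc25a3 (-0.12 and -0.29) and the calcium pump Atp2b1 (-0.12 and 0.0029).

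In the phosphate hormone group, 1 of 8 tested was called. Fgfr1, a receptor of the phosphate-lowering hormone FGF23, was at 17.9 CPM in the library labelled shAsns-1, 14.1 and 12.0 CPM in shAsns-2 and 10.7 and 8.96 CPM in shRenilla. Its groups followed the order of Phex without overlap, and it rose in the library labelled shAsns-1 (0.84, SE 0.177, adjusted p = 0.0122 by edgeR), a call that DESeq2 did not make. With shAsns-2 its estimate was 0.42 (adjusted p = 0.371). The order of Phex, or its mirror image, was met by 13.2% of all tested genes, so the order alone is not read as a result. Galnt3, the enzyme that protects FGF23 from cleavage (0.13 and 0.02), the secreted glycoprotein Stc1 (0.48, adjusted p = 0.0527 by edgeR, and -0.12) and the vitamin D receptor Vdr (-0.49, adjusted p = 0.0602 by edgeR, and 0.07) were not called against shRenilla. Stc1 was at 25.01 and 23.1 CPM in shRenilla, 20.3 and 22.9 CPM in shAsns-2 and 33.8 CPM in the library labelled shAsns-1. Only the last stood above the controls, and the difference between the hairpins was called for Stc1 (-0.60, SE 0.137, adjusted p = 0.0291 by edgeR, called under 6 of 10 alternatives with adjusted p from 0.00427 to 0.264).

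Relatives of Phex in the M13 metalloprotease family gave 0 calls among 2 tested: Ece1 (-0.04 in the library labelled shAsns-1 and 0.11 with shAsns-2) and Ece2 (-0.37 and -0.09), both endothelin-converting enzymes, with 1 of them under an unadjusted p of 0.05 by edgeR in the library labelled shAsns-1. Bone morphogenetic signalling and osteogenic factors gave 0 of 14 by edgeR in both contrasts (4 under an unadjusted p of 0.05 in the library labelled shAsns-1 and 1 with shAsns-2), with Atf4 (-0.01 and 0.13), Bmpr1a (0.33, adjusted p = 0.0582 by edgeR, and 0.02) and Bmpr2 (-0.11 and 0.06) as examples. These examples are the 3 most abundant tested genes of that group. Of the 4 counted in the library labelled shAsns-1, Bmpr1a had a positive estimate. Id1 (-0.64), Id3 (-0.29) and Acvr1 (-0.26) had negative ones. Of the osteopontin receptors 1 of 8 tested was called. Integrin beta 6 (Itgb6) was at 2.15 CPM in the library labelled shAsns-1, 4.49 and 3.38 CPM in shAsns-2 and 4.89 and 6.09 CPM in shRenilla, and it fell in the library labelled shAsns-1 (-1.36, SE 0.337, adjusted p = 0.0299 by edgeR). That call was lost with DESeq2, with limma-voom and without either control library. The abundant osteopontin receptors were not called: Cd44 (-0.05 and 0.14), Itgav (0.02 and 0.04) and Itgb1 (-0.24 and -0.04).

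**Figure D4:**
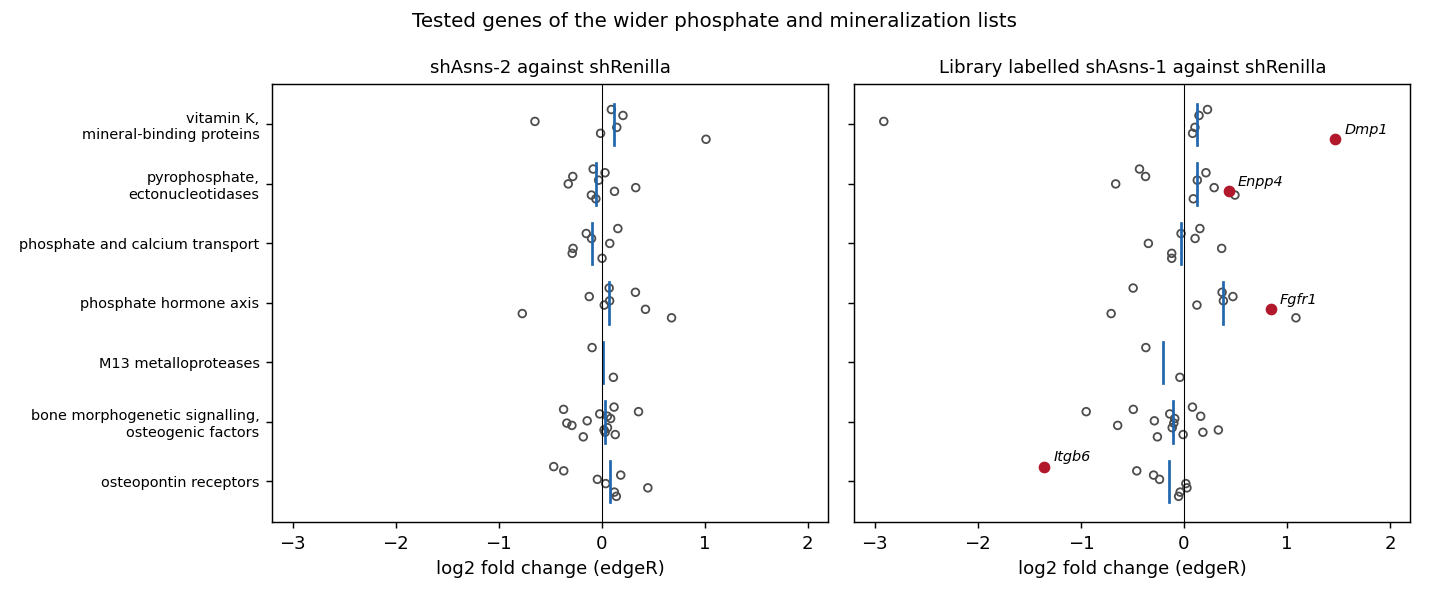
Log2 fold change of the 54 tested genes of the wider list against shRenilla, by functional group, for shAsns-2 and for the library labelled shAsns-1, with called genes filled and named and bars for the median of each group. Called genes appear only in the library labelled shAsns-1 (Dmp1, Enpp4 and Fgfr1 above 0 and Itgb6 below 0), and the open point farthest from 0, near the left edge, is Tnfrsf11b.

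Genes whose pattern was most like that of Phex and Mgp were found as those with the smallest distance of log2 CPM, after subtraction of the control mean, over the 5 libraries and 11418 genes. Nearest to Phex were Pdcd4 (distance 0.276), Sgk2 (0.283), Tslp (0.295), Chrnb2 (0.300) and Cetn4 (0.322). Pdcd4 was also nearest to Mgp (0.188), at 17.9 CPM in the library labelled shAsns-1, 10.9 and 11.8 CPM in shAsns-2 and 7.52 and 7.77 CPM in shRenilla. After Pdcd4 came Msx3 (0.203), Fam187b (0.205), Cyp24a1 (0.264) and C1qtnf6 (0.294), of which Cyp24a1, the vitamin D-degrading enzyme, is in the wider list. Mgp ranked 17th by likeness to Phex, and Phex ranked 23rd by likeness to Mgp, at a distance of 0.444. Both were picked for the same order over these libraries, so their closeness was built into the choice and is not a result. For Slc20a1, looked up after its values were seen, the nearest genes were Polg (0.0872), Krt7 (0.103), Ptgs2 (0.109), Ufsp1 (0.111) and Ajuba (0.122).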

How the data were processed

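RNA of 4T1 cells (4T1_T in the name of the deposited table) was extracted with Trizol and made into libraries with a Nugen Ovation kit, per the labels' protocols. The submitters' processing notes name Bowtie2, HTSeq and the build mm10, with versions, gene annotation and strandedness not given in the sources used here. The deposited values are raw read counts per gene, 1 column per library, which the authors left without normalization. The table has 23481 genes and 5 HTSeq tallies. Reads in no feature were 36.1% to 38.3% of all reads, reads not aligned 17.9% to 23.2% and ambiguous reads 0.584% to 0.626%, and these tallies were left out of library sizes and tests. Library B of shAsns-1, with 0 reads, was left out, so 5 libraries were fitted.

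The main test was edgeR 4.0.16 under R 4.3.3 (TMM factors, filterByExpr, glmQLFit and glmQLFTest on hairpin group), which left 2 residual degrees of freedom. The spread of each gene was drawn toward that of all tested genes, with 14.7 prior degrees of freedom. The single library labelled shAsns-1 took its spread from the other groups. Of the genes, 12457 passed the filter, all 8 described genes among them, and p-values were Benjamini-Hochberg adjusted over all 12457 and called under 0.05. The code was tested on simulated data. CPM divides reads by all gene reads of a library, and RPKM also by the exon length from GENCODE M21, to which 23120 symbols matched (1201 by an older symbol). Patterns were compared on log2 CPM with a prior count of 2. Intervals of ratios between libraries and the 3-read floor cover counting error only. Alternatives were RLE size factors, DESeq2 1.42.0, limma-voom (limma 3.58.1), no filter on low counts, a replicate block, removal of the G and C trend (content known for 12354 tested genes) and leaving out each library.

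The 8 genes and all lists were chosen with earlier results of these data known. Named beside the 8 were Asns, each called gene and the 3 most abundant tested genes (by mean CPM over the libraries) of each group of the wider list, and the 5 genes nearest in pattern to Phex and to Mgp (predicted models, RIKEN clones and pseudogenes left out). The neighbours of Slc20a1 and the values of the single mammary epithelial markers, Sp7, Pdgfra, Tnfrsf11b, Id1, Id3, Acvr1 and Runx2 were chosen after values were seen.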

Additional observations from a re-analysis of the deposited data

Results flagged for a closer look

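Slc20a1, the sodium-phosphate cotransporter PiT-1, differed between the Asns hairpins. It was at 106 CPM in the library labelled shAsns-1, 139 and 149 CPM in shAsns-2 and 176 and 175 CPM in shRenilla. The shAsns-2 libraries were higher than the library labelled shAsns-1 by 0.49 on the log2 scale (SE 0.103, 95% interval 0.27 to 0.71, adjusted p = 0.0193 by edgeR's quasi-likelihood test). The call was lost without shAsns-2 A and without shAsns-2 B. With 1 library on one side, hairpin and library cannot be told apart, and the cause was not tested.

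Stc1, a secreted glycoprotein of the phosphate hormone group, also differed between the hairpins. Its values were 25.01 and 23.1 CPM in shRenilla, 20.3 and 22.9 CPM in shAsns-2 and 33.8 CPM in the library labelled shAsns-1. The log2 difference, shAsns-2 minus the library labelled shAsns-1, was -0.60 (SE 0.137, 95% interval -0.89 to -0.31, adjusted p = 0.0291 by edgeR). The call was lost with DESeq2, with the G and C trend removed and without either shAsns-2 library.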

How the results depend on the processing

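With 5 libraries, 1 of them alone in its group, small differences in Alpl (49 to 71 reads a library) and Enpp1 (51 to 114) were not detectable at this depth. Of the 6 function-named genes, 0 were called with shAsns-2 under every setting. For the library labelled shAsns-1, DESeq2 called 1 (Slc20a1) in place of 2. For the mean of both hairpins, 2 were called with no filter on low counts, 2 with the replicate block, and 0 to 2 when each library was left out, the 0 being without the library labelled shAsns-1 and the 2 without shRenilla B. For the difference between the hairpins, 2 were called with no filter, 3 with the replicate block, and 0 to 3 when each library was left out. In the wider list, calls went from 4 to 0 (DESeq2), 9 (no filter) and 8 (replicate block) for the library labelled shAsns-1, from 2 to 0, 6 and 7 for the mean of both hairpins (DESeq2 gave Dmp1 no adjusted p in either contrast), and from 0 to 2 with no filter and 1 with the replicate block for shAsns-2. For the difference between the hairpins, settings added after seeing the data took the 1 call in the wider list to 0 (DESeq2 and G and C trend removed) and to 2 (no filter and replicate block). Leaving out each library gave 0 to 2 for the mean and 0 to 1 for shAsns-2, the 1 being without shRenilla A, and 0 to 3 for the difference, the 0 being without either shAsns-2 library and the 3 without shRenilla B. Libraries A of shAsns-2 and shRenilla did not deviate together (correlation 0.0267 over 8951 genes), and the labels give only a shared letter.

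Over all tested genes, 544 calls for the library labelled shAsns-1 became 235 with DESeq2, 347 with the G and C trend removed, 919 with no filter, 924 with the replicate block and 290 to 825 when each library was left out. The 8 calls for shAsns-2 became 5, 3, 114, 178 and 0 to 47 under the same settings. The 195 calls for the mean became 95 with DESeq2, 497 with no filter, 536 with the replicate block and 8 to 187 when each library was left out. The 267 calls for the difference became 153, 136, 608, 875 and 58 to 642.

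Of 336 alternative fold changes of the 8 genes, 16 had the other sign, each in a contrast where that gene was not called. With the G and C trend removed, Slc20a2 was at 0.0012 for the library labelled shAsns-1 and 0.0051 for the mean. When each library was left out, the shAsns-2 values ran from -0.060 to 0.44 for Spp1, -0.043 to 0.18 for Enpp1, -0.14 to 0.11 for Ank, -0.011 to 0.090 for Alpl and -0.11 to 0.13 for Slc20a2. Slc20a2 ran from -0.18 to 0.054 in the library labelled shAsns-1, from -0.15 to 0.091 for the mean and from -0.034 to 0.18 for the difference. For the mean, Enpp1 ran from -0.31 to 0.085 and Ank from -0.020 to 0.27. The cause was not tested. Phex and Mgp kept their direction under every setting. The values were 0.38 to 0.52 and 0.68 to 0.74 for shAsns-2 and 1.22 to 1.43 and 1.11 to 1.18 for the library labelled shAsns-1. Both were picked for that direction over these libraries, so its keeping was built into the choice and is not a result. Ank was called higher in that library with the replicate block and without shRenilla B, and under no other of its 10 alternatives. Without the library labelled shAsns-1 its own contrast and the difference between the hairpins have no value.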

Other observations

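Nearly as many genes of the wider mineralization list were too low to test as were tested. Of the 104 genes, 50 did not pass the filter, with at most 8 reads in any library, and 11 of them had 0 reads in every library. At least 1 read fell on 14 and 17 of the 50 in the shRenilla libraries, on 16 in each shAsns-2 library and on 32 in the library labelled shAsns-1. Their reads summed to 32 and 27 in shRenilla, 37 and 33 in shAsns-2 and 70 in the library labelled shAsns-1, which had the fewest gene reads of the 5. Runx2, the master transcription factor of osteoblasts, named after its values were seen, was well above this level, at 193 and 201 CPM in shRenilla, 204 and 206 CPM in shAsns-2 and 187 CPM in the library labelled shAsns-1.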
